A study of Mus musculus with 12 samples.

Results

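The 33 genes described here encode the machinery that brings pyruvate into mitochondria, turns it into acetyl-CoA and oxidises it in the tricarboxylic acid (TCA) cycle, together with soluble enzymes of the malate-aspartate shuttle. They were chosen by symbol from a list set by function, and all 33 were found among the 19308 genes of the deposited table and passed the filter on low counts that left 14094 genes. RNA was sequenced from 12 hearts of C57BL/6 mice, 3 per group, taken 1 week after surgery that was done at 8 weeks of age. The WT sham hearts came from wild-type mice whose chest was opened without constriction, and the WT TAC hearts from wild-type mice whose aortic arch was tied against a needle that was then withdrawn (transverse aortic constriction, TAC), which loads the left ventricle with pressure. The F3-KO sham and F3-KO TAC hearts came from *Fabp3*-null mice, a global CRISPR/Cas9 knockout of fatty acid binding protein 3, given the same operations. The knockout is not restricted to cardiomyocytes, and heart tissue with all its cell types was sequenced.

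Pyruvate made by glycolysis enters the mitochondrial matrix through the carrier formed by MPC1 and MPC2. The pyruvate dehydrogenase (PDH) complex converts it to acetyl-CoA. PDH kinases switch the complex off by phosphorylation and PDH phosphatases switch it on again, while pyruvate carboxylase instead makes oxaloacetate to refill the cycle. Citrate synthase joins acetyl-CoA, from pyruvate or from fatty acids, to oxaloacetate, and the enzymes that follow release carbon dioxide and load NADH and FADH2 for the respiratory chain. Succinate dehydrogenase belongs both to the cycle and to the chain, where it is complex II. The malate-aspartate shuttle carries the electrons of cytosolic NADH into mitochondria. In the adult heart, whose ATP comes mostly from mitochondria, the enzymes of the cycle are abundant in cardiomyocytes.

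Libraries held 10424334 to 14372011 estimated counts. The knocked-out gene, *Fabp3*, was measured at 2849, 2432 and 2117 CPM (counts scaled to library size) in WT sham hearts and 3064, 2887 and 2904 in WT TAC hearts, against 1089, 1040 and 1066 in F3-KO sham and 1143, 1002 and 1014 in F3-KO TAC hearts, so that its level was lower in every knockout heart but not absent (edgeR adjusted p = 0.00784 after sham and 0.00146 after TAC). Markers of cardiomyocytes were abundant in all 12 hearts, with a summed level of 8 genes between 58490 and 96530 CPM. In bulk tissue, fewer cells of a type and less RNA per cell cannot be told apart. The members together took 2.296% to 2.75% of the counts of a WT sham heart, 2.64% to 2.87% of an F3-KO sham heart, 2.18% to 2.63% of a WT TAC heart and 1.83% to 2.54% of an F3-KO TAC heart.

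To show the regulatory context of the members whose levels are followed most closely below, promoters of 300 bases (250 before and 50 after the start site) were taken from RefSeq, assembly GRCm38.p6. Of the 33 members 30 had an entry, and *Pdp1*, *Idh3a* and *Sdhc* had none. Each promoter was searched on both strands for AAGGTCA, the core of the element bound by estrogen-related receptors (ERR), and for GCGCANGC, the core of the nuclear respiratory factor 1 (NRF1) motif; both factors are known regulators of mitochondrial genes, and no match of one word can share bases with a match of the other. The ERR word was found in promoters of 3 of 30 members (10%: *Ogdh*, *Sdhd* and *Got1*), against 4.53% of 14342 genes of the count table with an entry. The NRF1 core was found in 9 of 30 members (30%: *Mpc2*, *Dld*, *Pdhx*, *Pdk1*, *Ogdh*, *Sucla2*, *Sdha*, *Sdhb* and *Sdhd*), against 17.7% of the same genes. Promoters are shown for *Mpc2* and *Sdhb*, which hold the core, and for *Suclg1* and *Cs*, which hold neither word, because these members are among those with the smallest p values in the comparisons of F3-KO TAC hearts. A match describes the letters alone and says nothing of binding. Sequences are written 5′ to 3′ on the gene's strand, with the NRF1 core in capitals; in both it lies on the opposite strand. *Mpc2* lies at chr1:165461010-165461309 (+), *Sdhb* at chr4:140961021-140961320 (+), *Suclg1* at chr6:73248255-73248554 (+) and *Cs* at chr10:128337477-128337776 (+).
Mpc2: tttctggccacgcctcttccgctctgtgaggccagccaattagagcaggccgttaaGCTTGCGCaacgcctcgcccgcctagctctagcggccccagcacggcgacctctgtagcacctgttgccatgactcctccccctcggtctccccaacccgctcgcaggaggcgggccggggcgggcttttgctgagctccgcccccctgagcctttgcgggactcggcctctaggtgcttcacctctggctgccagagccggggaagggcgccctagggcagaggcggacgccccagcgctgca
Sdhb: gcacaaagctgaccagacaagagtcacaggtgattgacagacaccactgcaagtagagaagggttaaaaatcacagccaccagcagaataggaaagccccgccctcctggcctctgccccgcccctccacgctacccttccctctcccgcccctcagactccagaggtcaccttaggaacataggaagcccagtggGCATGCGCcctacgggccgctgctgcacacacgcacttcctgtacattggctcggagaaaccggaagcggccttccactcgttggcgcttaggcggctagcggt
Suclg1: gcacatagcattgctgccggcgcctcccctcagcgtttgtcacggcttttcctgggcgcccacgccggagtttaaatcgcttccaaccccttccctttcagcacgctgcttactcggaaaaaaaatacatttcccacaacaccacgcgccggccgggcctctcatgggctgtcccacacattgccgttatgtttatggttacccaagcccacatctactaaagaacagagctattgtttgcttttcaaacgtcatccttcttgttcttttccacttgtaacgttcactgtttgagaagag
Cs: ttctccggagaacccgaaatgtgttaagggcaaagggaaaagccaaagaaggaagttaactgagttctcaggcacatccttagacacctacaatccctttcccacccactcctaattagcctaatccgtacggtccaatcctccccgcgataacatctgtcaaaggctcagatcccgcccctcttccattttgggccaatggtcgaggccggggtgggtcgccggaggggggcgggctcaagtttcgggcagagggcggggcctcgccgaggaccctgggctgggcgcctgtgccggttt

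Levels of different genes were set side by side only per kilobase of the principal GENCODE M21 transcript (CPM per kb), in WT sham hearts (mean ± SD, n = 3). *Idh2*, the NADP-dependent mitochondrial isocitrate dehydrogenase, stood at 1369 ± 143. The malate dehydrogenases of mitochondria (*Mdh2*, 1004 ± 206) and cytosol (*Mdh1*, 1001 ± 61.2) came next and overlapped each other. *Sdhb* followed at 819.5 ± 57.3, and *Ogdh*, the first subunit of the oxoglutarate dehydrogenase complex, at 749.9 ± 197, with overlapping ranges. Of the PDH kinases among the members, *Pdk2* was the most abundant per length (326 ± 66.1), ahead of *Pdk1* (33.1 ± 6.48) and *Pdk3* (1.56 ± 0.393), and these 3 ranges did not overlap. The phosphatase catalytic subunits *Pdp1* (10.8 ± 3.09) and *Pdp2* (7.40 ± 2.09) overlapped, and the regulatory subunit *Pdpr* lay above both (32.4 ± 6.39). Of the succinyl-CoA ligase beta subunits, the ATP-forming *Sucla2* (251 ± 58.5) lay above the GTP-forming *Suclg2* (55.3 ± 8.85), with the shared alpha subunit *Suclg1* at 228 ± 35.3. *Pcx*, pyruvate carboxylase, was low (9.85 ± 2.08).

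The hearts differed in the members as a set. Expressed as log2 CPM minus the mean of the WT sham hearts, the median over the 33 members was 0.16, -0.28 and 0.09 in WT sham replicates 1, 2 and 3, and 0.04, 0.13 and 0.21 in the F3-KO sham hearts. In the TAC-operated hearts it was -0.25, 0.08 and 0.08 in WT and -0.28, -0.58 and 0.01 in F3-KO. In the F3-KO TAC group 2 hearts were low, with 29 members below the WT sham mean in replicate 1 and 30 in replicate 2. Within each of 3 groups, 1 heart ranked lowest for most members. WT sham replicate 2 was the lowest of its group for 29 of 33 members, WT TAC replicate 1 for 27 and F3-KO TAC replicate 2 for 29. F3-KO TAC replicate 2 was the lowest of all 12 hearts for 26 members, and F3-KO sham replicate 3 the highest of the 12 for 18. Within the F3-KO TAC group, replicate 3 was the highest for 30 of 33 members.

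**Figure D1:**
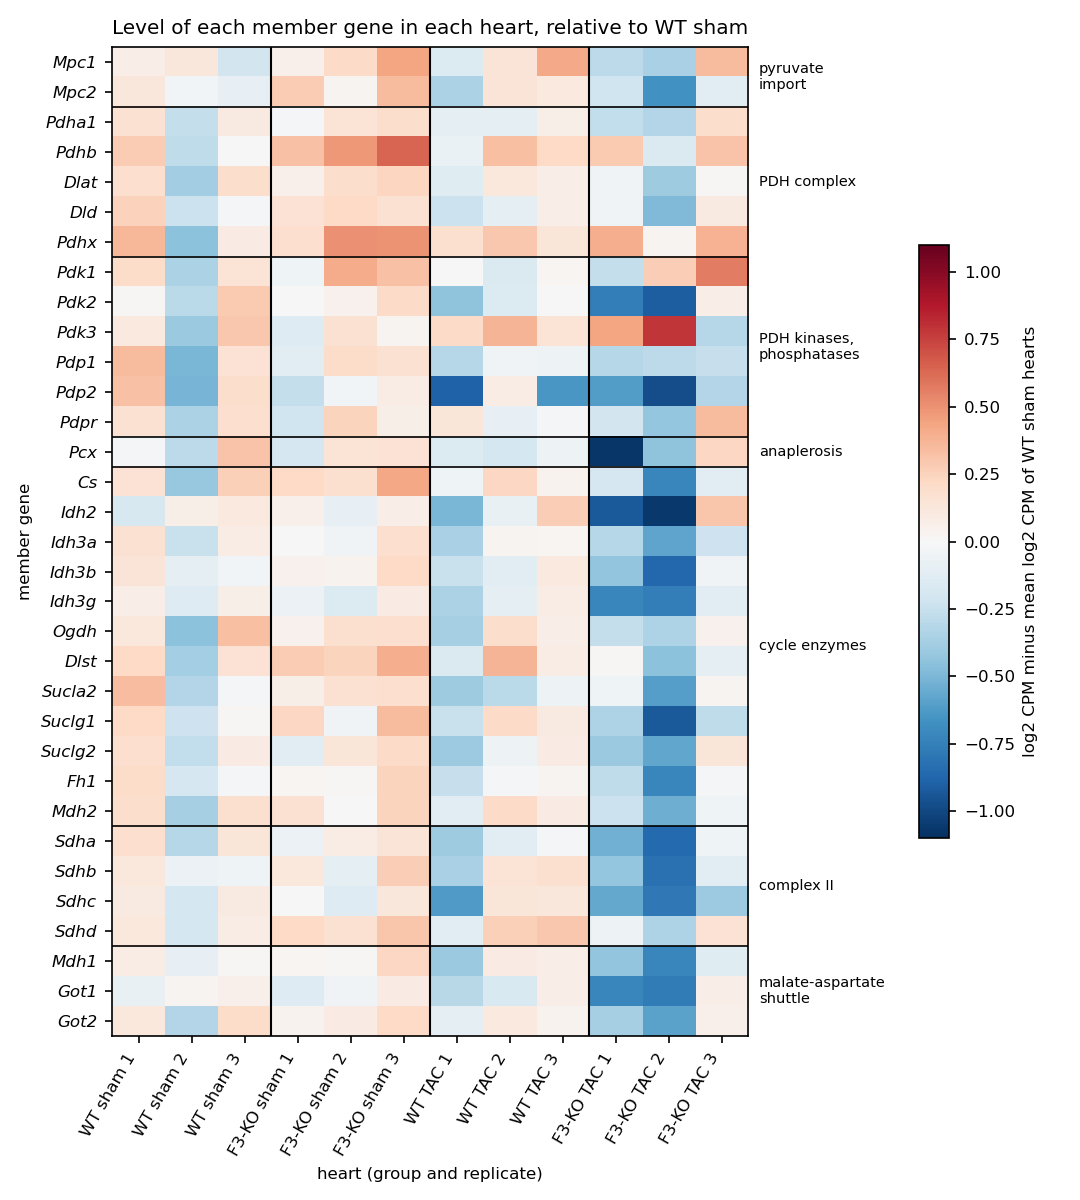
Each row is a member gene, grouped by role, and each column a heart; colour gives log2 CPM minus the mean log2 CPM of the 3 WT sham hearts. F3-KO TAC replicate 2 has a median of -0.58 over the 33 members and F3-KO TAC replicate 3 a median of 0.01.

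The first comparison asked how the members responded to pressure overload in hearts without FABP3. In F3-KO TAC against F3-KO sham hearts, 32 of 33 members had a log2 fold change below 0, the exception being *Pdk3*, and the median over the members was -0.39, against 0.02 over all tested genes. The values ran from -0.68 (*Suclg1*) to 0.37 (*Pdk3*). No member passed edgeR's quasi-likelihood test at an adjusted p under 0.05 (0 of 33; 0% of all genes were called in this contrast), and the smallest adjusted p of a member was 0.178. At an unadjusted p under 0.05 there were 13 of 33 members, all lower (39.4%), against 17.1% of all genes in either direction and 6.47% in the lower direction. At this level limma-trend gave 13 members, against 15.9% of all genes, and DESeq2's Wald test 15, against 13.8%. The F3-KO TAC hearts lay below all 3 F3-KO sham hearts, without overlap, for 19 members and above them for 0, where 22.9% of all genes did not overlap and 11.4% did not overlap in the lower direction. Of the 33 members, F3-KO TAC replicate 1 was below the sham range for 30, replicate 2 for 31 and replicate 3 for 20.

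These counts depended on single hearts. Without F3-KO TAC replicate 2, or without F3-KO sham replicate 3, the same 2 members, *Mpc2* and *Suclg1*, stayed at an unadjusted p under 0.05, where 9.94% and 9.44% of all genes did in these fits. Without F3-KO TAC replicate 3, 25 members did, of which 24 were lower and *Pdk3* was higher, and 5 members passed at an adjusted p under 0.05 in edgeR: *Pdk2* (log2 fold change -0.92), *Idh2* (-1.002), *Idh3b* (-0.74), *Idh3g* (-0.70) and *Got1* (-0.72). In that fit 24.6% of all genes had an unadjusted p under 0.05 (10.1% in the lower direction) and 5.43% were called at an adjusted p under 0.05. In DESeq2, with all hearts, *Suclg1* alone of the members was called (log2 fold change -0.69, adjusted p = 0.0328); over all 13 alternatives its adjusted p ran from 0.0328 to 0.52. DESeq2 called 3.11% of all genes in this contrast, about the share that 1 of 33 members makes.

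Cell type markers also differed between these 2 groups. The summed level of 8 fibroblast markers, scaled by library total, was 1234, 1429 and 1039 CPM in the F3-KO sham hearts (replicates 1, 2 and 3) and 4417, 7805 and 1539 CPM in the F3-KO TAC hearts. The heart with the lowest members thus had the highest fibroblast sum. All 8 fibroblast markers had a log2 fold change above 0 in this contrast, 5 of them at an unadjusted p under 0.05 and 0 at an adjusted p under 0.05, and all 8 were detected in both groups. Of 6 macrophage markers, all had values above 0 and 5 an unadjusted p under 0.05, with sums of 301 to 361 CPM in F3-KO sham and 424 to 729 CPM in F3-KO TAC hearts. The macrophage sum was highest in F3-KO TAC replicate 1, at 729, 594 and 424 CPM in replicates 1, 2 and 3. The sum of 8 cardiomyocyte markers was 84690 to 92840 CPM in F3-KO sham and 58490 to 71010 CPM in F3-KO TAC hearts, and all 8 had log2 fold changes below 0 (median -0.46). In F3-KO TAC replicates 1, 2 and 3 this sum was 71010, 58490 and 59740 CPM. The median of these markers relative to WT sham was -0.32, -0.51 and -0.16 in the same hearts. Sums of 5 erythroid markers were 1070 to 4493 CPM and 366 to 979 CPM, and those of 5 endothelial markers 817 to 1107 CPM and 640.0 to 1279 CPM. The endothelial sum was also highest in F3-KO TAC replicate 1, at 1279, 989 and 640.0 CPM in replicates 1, 2 and 3. White adipocyte markers reached at most 1.07 CPM in sum in any heart and *Ucp1*, the defining marker of brown adipocytes, was at 0 in 10 of 12 hearts. The other brown adipocyte marker of the list, *Cidea*, was detected in all 12 hearts, at 26.95 to 43.3 CPM. Its log2 fold change in this contrast was -0.25 (edgeR unadjusted p = 0.0792). The part of these cell types in the members' values was not tested.

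**Figure D2:**
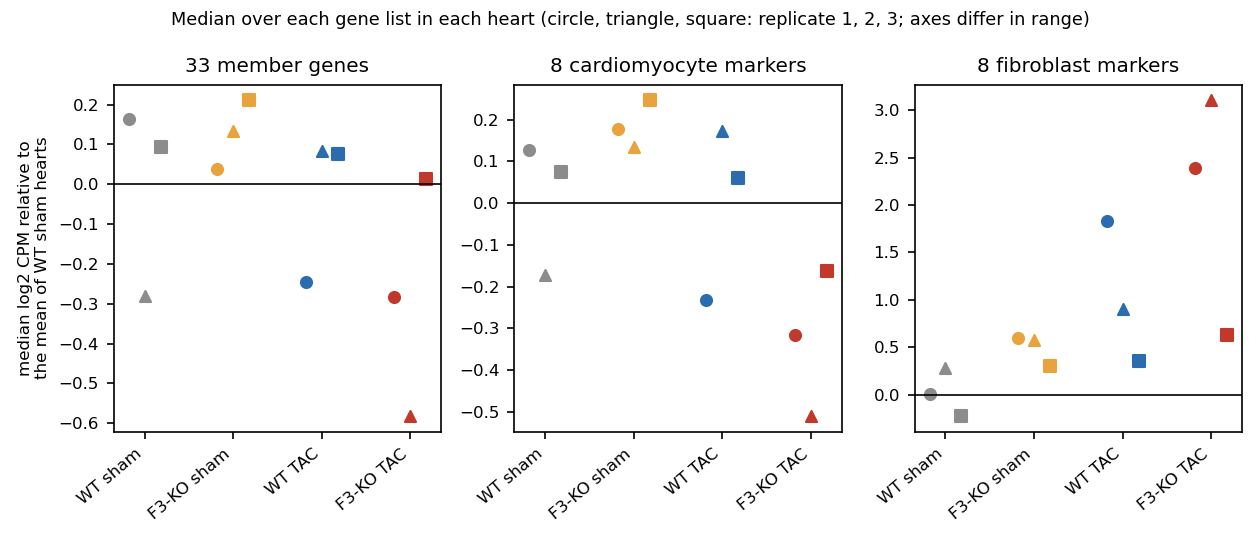
Points are single hearts; the vertical axis is the median, over the 33 members (left), 8 cardiomyocyte markers (middle) or 8 fibroblast markers (right), of log2 CPM relative to the mean of the WT sham hearts, and the 3 axes differ in range. The F3-KO TAC hearts at -0.28 and -0.58 in the members stood at 2.39 and 3.11 in the fibroblast markers, and the heart at 0.01 stood at 0.62.

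By role, the enzymes of the cycle and complex II had the larger values in this contrast, and the PDH complex and its regulators the smaller. For 12 cycle enzymes the median log2 fold change was -0.43, with 7 at an unadjusted p under 0.05, all lower. Of these 12, 9 were lower without overlap, against 22.9% of all genes without overlap and 11.4% in the lower direction. For the 4 subunits of complex II it was -0.51, with 3 at an unadjusted p under 0.05. The 2 pyruvate carrier subunits gave -0.42 (1 of 2), the 3 shuttle enzymes -0.39 (1 of 3), the 5 PDH complex subunits -0.29 (0 of 5) and the 6 kinases and phosphatases -0.24 (1 of 6). Lower without overlap were 3 of 4 complex II and 3 of 5 PDH complex subunits. The same held for 2 of 6 kinases and phosphatases, 1 of 2 carrier subunits and 1 of 3 shuttle enzymes. Over all genes of this contrast the share at an unadjusted p under 0.05 was 17.1%, or 6.47% in the lower direction, and 1 of 6 or 1 of 3 genes is too small a count to set apart from it. Differences between the role groups were not tested.

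**Figure D3:**
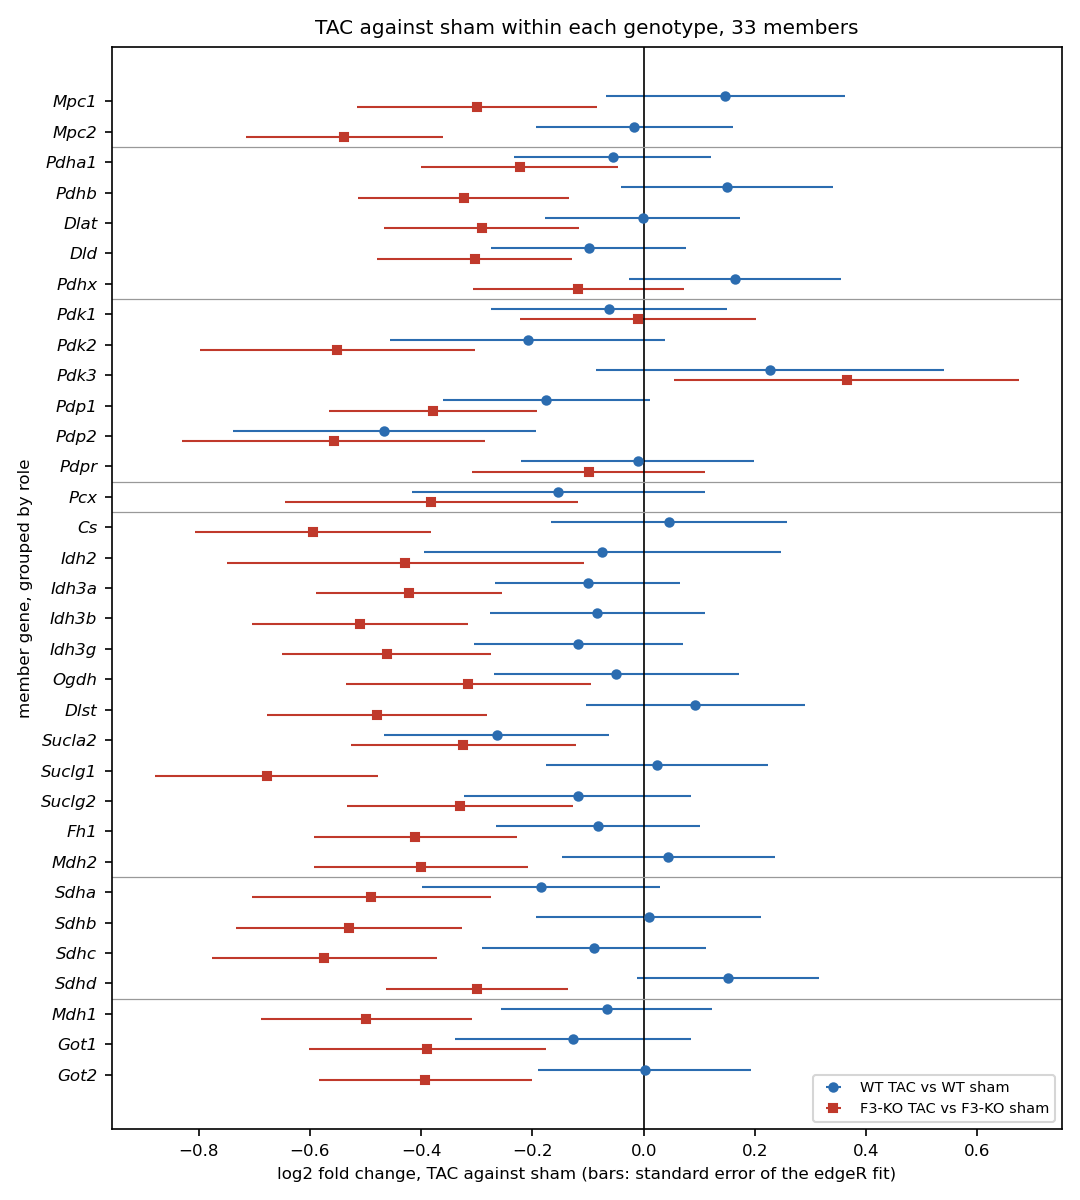
The horizontal axis is the log2 fold change of TAC against sham hearts for each of 33 members, with the standard error of the edgeR fit as bars; circles are WT and squares F3-KO, 3 hearts per group. In F3-KO 32 of 33 values lie below 0 with a median of -0.39, and in WT 22 of 33 with a median of -0.06.

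*Mpc2* encodes one subunit of the mitochondrial pyruvate carrier. It was measured at 281, 237 and 294 CPM in F3-KO sham and 199.8, 146 and 214 CPM in F3-KO TAC hearts, against 253, 226 and 218 CPM in WT sham and 182, 256 and 250.3 CPM in WT TAC hearts. All 3 F3-KO TAC hearts were below all 3 F3-KO sham hearts, with a log2 fold change of -0.54 (SE 0.18, unadjusted p = 0.0103, edgeR adjusted p = 0.186), while the WT groups overlapped (-0.02, SE 0.18). Its partner *Mpc1* was at 695, 775 and 905 CPM in F3-KO sham and 550.4, 524 and 854 CPM in F3-KO TAC hearts, where replicate 3 lay inside the sham range (-0.30, SE 0.22, edgeR adjusted p = 0.502).

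The PDH complex is built from the E1 subunits encoded by *Pdha1* and *Pdhb*, the acetyltransferase *Dlat*, the lipoamide dehydrogenase *Dld* and the binding protein *Pdhx*. Their log2 fold changes in F3-KO TAC against F3-KO sham hearts ran from -0.32 (*Pdhb*) to -0.12 (*Pdhx*), and the smallest edgeR adjusted p was 0.397. *Pdhb* was measured at 758, 514 and 625 CPM in WT sham, 781, 871 and 974 in F3-KO sham, 594, 783 and 727 in WT TAC and 760.5, 559 and 778 in F3-KO TAC hearts. The F3-KO sham hearts were the high group for this gene, above all WT sham hearts and above all F3-KO TAC hearts. *Dlat* and *Dld* were also without overlap between F3-KO sham and F3-KO TAC, at 492, 541 and 555 against 461, 361 and 477 CPM for *Dlat* and 445, 463 and 446 against 388, 284 and 425 CPM for *Dld*. *Pdha1* and *Pdhx* overlapped.

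Among the regulators of the complex, the kinase *Pdk2* was at 718, 747 and 836 CPM in F3-KO sham and 427, 386 and 759 CPM in F3-KO TAC hearts. Replicates 1 and 2 lay far below the sham range and replicate 3 inside it, and the log2 fold change was -0.55 (SE 0.25, unadjusted p = 0.0464, edgeR adjusted p = 0.285). In the WT hearts *Pdk2* was at 728, 587 and 884 CPM after sham and 533, 650.3 and 719.5 CPM after TAC (-0.21, SE 0.25). *Pdk1* and *Pdk3* did not share this pattern. *Pdk1* had a log2 fold change of -0.01 (SE 0.21), and *Pdk3*, at 2.56 to 5.68 CPM in F3-KO TAC hearts the least counted member, one of 0.37 (SE 0.31). The phosphatase *Pdp1* was at 40.8, 50.9 and 49.7 CPM in F3-KO sham and 35.5, 36.2 and 36.95 CPM in F3-KO TAC hearts, and *Pdp2*, which encodes the other phosphatase catalytic subunit, at 34.1, 40.1 and 43.2 CPM after sham and 26.6, 20.7 and 32.6 CPM after TAC. For both, the groups did not overlap, with log2 fold changes of -0.38 (SE 0.19) and -0.56 (SE 0.27) and edgeR adjusted p values of 0.320 and 0.318. *Pdpr* overlapped (-0.10, SE 0.21).

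*Pcx*, which refills the cycle with oxaloacetate, was at 34.6, 43.8 and 43.98 CPM in F3-KO sham and 18.8, 28.96 and 46.3 CPM in F3-KO TAC hearts. The F3-KO TAC hearts spanned the F3-KO sham hearts, from the lowest *Pcx* level of the 12 hearts to a level above the F3-KO sham range. The log2 fold change was -0.38 (SE 0.26, edgeR adjusted p = 0.483).

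*Cs*, citrate synthase, catalyses the entry step of the cycle. It was measured at 2087, 1403 and 2251 CPM in WT sham, 2186, 2123 and 2514 in F3-KO sham, 1809, 2192 and 1925 in WT TAC and 1648, 1138 and 1732 in F3-KO TAC hearts. All 3 F3-KO TAC hearts were below the F3-KO sham hearts and below the WT TAC hearts, while WT sham replicate 2 was as low as the F3-KO TAC hearts. The log2 fold change was -0.59 (SE 0.21, unadjusted p = 0.0163, edgeR adjusted p = 0.208) in F3-KO and 0.05 (SE 0.21) in WT.

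The isocitrate dehydrogenases differed in how their hearts were arranged. *Idh3a*, *Idh3b* and *Idh3g* encode the subunits of the NAD-dependent enzyme, and their log2 fold changes in F3-KO TAC against F3-KO sham hearts were -0.42 (SE 0.17), -0.51 (SE 0.19) and -0.46 (SE 0.19), each at an unadjusted p under 0.05. *Idh3b*, for example, was at 761, 754 and 855 CPM in F3-KO sham and 544, 405 and 716 CPM in F3-KO TAC hearts, without overlap, and *Idh3a* did not overlap either. *Idh2*, chosen here after its values were seen, was at 2469, 2231 and 2498 CPM in F3-KO sham and 1256, 1144 and 2948 CPM in F3-KO TAC hearts. Replicates 1 and 2 were the lowest of all 12 hearts for *Idh2* and replicate 3 was the highest of the 12, which left a log2 fold change of -0.43 with an SE of 0.32 (edgeR adjusted p = 0.523).

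*Ogdh* and *Dlst* encode subunits of the oxoglutarate dehydrogenase complex. *Dlst* was at 869, 848 and 940.3 CPM in F3-KO sham and 721, 522 and 663 CPM in F3-KO TAC hearts, without overlap (log2 fold change -0.48, SE 0.20, unadjusted p = 0.0318, edgeR adjusted p = 0.246). *Ogdh* was at 3125, 3409 and 3440 CPM after sham and 2509, 2390 and 3118 CPM after TAC in F3-KO hearts, also without overlap, with a smaller value of -0.32 (SE 0.22). In the WT sham group *Ogdh* ran from 2208 to 3802 CPM, a range that held all 3 F3-KO TAC hearts.

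Succinyl-CoA ligase makes succinate and a nucleoside triphosphate from succinyl-CoA. Its alpha subunit gene *Suclg1* was measured at 400.4, 293 and 346 CPM in WT sham, 402, 335 and 438 in F3-KO sham, 289.8, 398 and 368 in WT TAC and 271, 181 and 282 in F3-KO TAC hearts. Every F3-KO TAC heart was below every heart of the other 3 groups. The log2 fold change against F3-KO sham was -0.68 (SE 0.20, unadjusted p = 0.00548, edgeR adjusted p = 0.178) and that of WT TAC against WT sham 0.02 (SE 0.20). *Sucla2* and *Suclg2*, the alternative beta subunits, had smaller values of -0.32 (SE 0.20) and -0.33 (SE 0.20), with *Sucla2* at 576, 619 and 625 CPM in F3-KO sham and 532, 361 and 562 CPM in F3-KO TAC hearts. The last steps of the cycle, fumarase (*Fh1*) and mitochondrial malate dehydrogenase (*Mdh2*), had log2 fold changes of -0.41 (SE 0.18, unadjusted p = 0.045) and -0.40 (SE 0.19, unadjusted p = 0.0587), both without overlap of the groups.

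**Figure D4:**
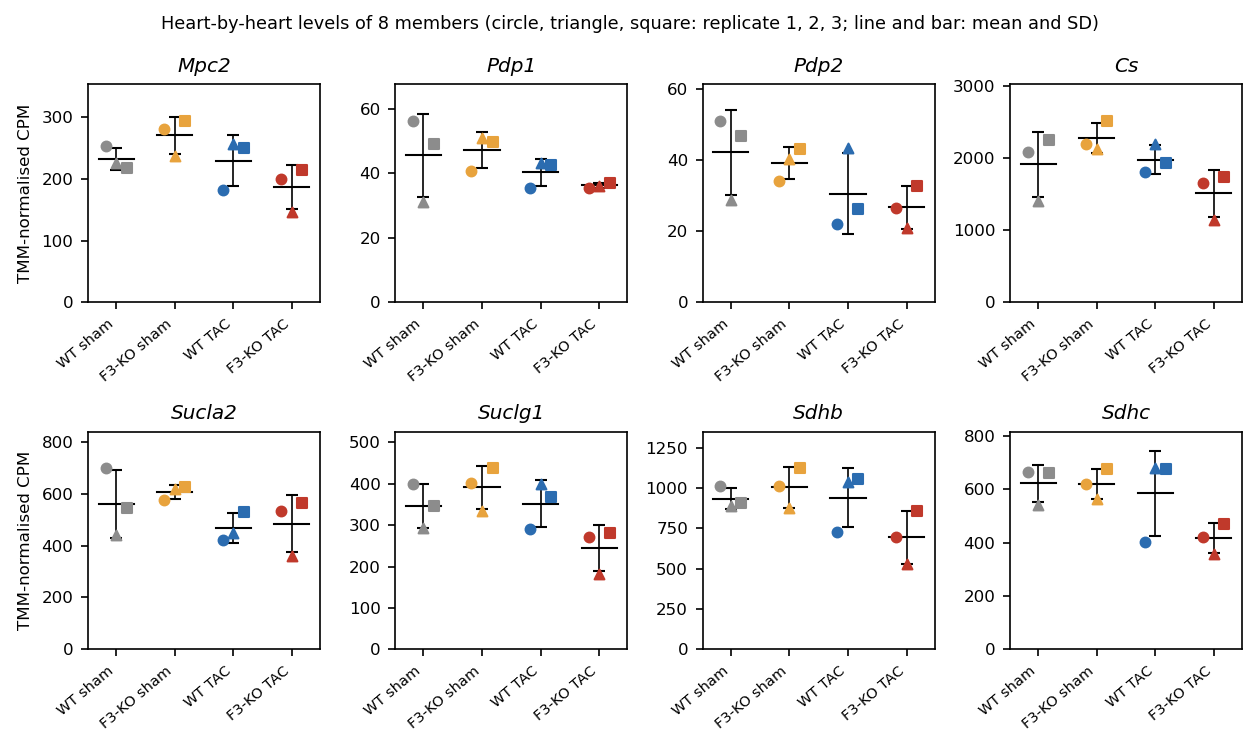
TMM-normalised CPM of 8 members in each heart, with replicates 1, 2 and 3 as circles, triangles and squares, and the mean and SD of 3 hearts in black; each vertical axis starts at 0. For *Suclg1* the F3-KO TAC hearts, at 271, 181 and 282 CPM, lie below all 9 other hearts.

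Complex II oxidises succinate and passes the electrons to ubiquinone. *Sdhc*, which encodes a membrane anchor, was at 664, 542 and 662 CPM in WT sham, 622, 562 and 677 in F3-KO sham, 402, 679.7 and 674 in WT TAC and 420.1, 359 and 471 in F3-KO TAC hearts. The F3-KO TAC hearts were below both sham groups, and WT TAC replicate 1 lay among them. Its log2 fold change in F3-KO was -0.57 (SE 0.20, unadjusted p = 0.015, edgeR adjusted p = 0.202). The iron-sulfur subunit *Sdhb* was at 1011, 892 and 905 CPM in WT sham, 1013, 875 and 1125 in F3-KO sham, 730.1, 1040 and 1056 in WT TAC and 696, 529 and 861 in F3-KO TAC hearts, with -0.53 (SE 0.20, unadjusted p = 0.0227) and no overlap of the F3-KO groups. *Sdha*, the flavoprotein subunit, overlapped (-0.49, SE 0.21, unadjusted p = 0.0418), since replicate 3, at 1403 CPM, was inside the sham range. The other anchor, *Sdhd*, had the smallest value of the complex (-0.30, SE 0.16).

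The shuttle members were the cytosolic malate dehydrogenase *Mdh1* and the cytosolic and mitochondrial aspartate aminotransferases *Got1* and *Got2*. *Mdh1* was at 2158, 2146 and 2484 CPM in F3-KO sham and 1575, 1291 and 1939 CPM in F3-KO TAC hearts, without overlap (-0.50, SE 0.19, unadjusted p = 0.0221, edgeR adjusted p = 0.223). *Got1* was at 967, 1038 and 1134 CPM after sham and 649, 627 and 1122 CPM after TAC, with replicates 1 and 2 far below the sham range and replicate 3 inside it (-0.39, SE 0.21). *Got2* also overlapped (-0.39, SE 0.19).

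The same operation was then compared in wild-type hearts. In WT TAC against WT sham hearts the median log2 fold change of the members was -0.06, against 0 over all tested genes, with 22 of 33 below 0. No member was called by edgeR at an adjusted p under 0.05 (0 of 33, against 0% of all genes). None reached an unadjusted p under 0.05 either (0 of 33, against 6.28% of all genes). DESeq2 and limma-trend also gave 0 members at an unadjusted p under 0.05, against 5.2% and 5.91% of all genes. No member had groups without overlap, where 9.1% of all genes did. WT TAC replicate 1 was below the WT sham range for 16 members, replicate 2 for 2 and replicate 3 for 1. WT TAC replicate 1 also had the highest fibroblast marker sum of its group, 3391 CPM against 1492 and 1368 CPM in replicates 2 and 3. The WT sham sums were 929.5, 1619 and 737 CPM, so that WT TAC replicates 2 and 3 lay inside the sham range. The part of fibroblasts in the members' values was not tested.

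The 3 members with the smallest p in the WT hearts were *Pdp2*, *Sucla2* and *Pdp1*. *Pdp2* was at 50.99, 28.6 and 46.8 CPM in WT sham and 21.97, 43.3 and 26.2 CPM in WT TAC hearts. WT TAC replicate 2 stood among the sham hearts and the other two below them, with a log2 fold change of -0.47 (SE 0.27, unadjusted p = 0.113, edgeR adjusted p = 0.803). That value was -0.81 without WT TAC replicate 2, -0.28 without WT TAC replicate 1 and -0.31 without WT sham replicate 1. *Sucla2* was at 698, 439.5 and 543 CPM after sham and 421, 448 and 531 CPM after TAC (-0.26, SE 0.20), and the groups overlapped because WT sham replicate 2 was low. The value of *Sucla2* was -0.41 without that heart and -0.08 without WT sham replicate 1. *Pdp1* was at 56.2, 31.1 and 49.2 CPM after sham and 35.5, 43.1 and 42.4 CPM after TAC (-0.17, SE 0.19), and its value ran from -0.39 without WT sham replicate 2 to 0.0043 without WT sham replicate 1.

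The difference between the TAC responses of the 2 genotypes was tested directly as the interaction of genotype and surgery. Its median over the members was -0.33 on the log2 scale, against 0.03 over all tested genes, and 31 of 33 values were below 0. No member passed edgeR's test at an adjusted p under 0.05 (0 of 33; 0% of all genes), with a smallest adjusted p of 0.954. At an unadjusted p under 0.05 there was 1 member, *Suclg1* (3.03%; 4.48% of all genes), with an interaction of -0.70 (SE 0.28, unadjusted p = 0.0289, edgeR adjusted p = 0.954). *Cs* had -0.64 (SE 0.30, unadjusted p = 0.0544) and *Mpc2* -0.52 (SE 0.25, unadjusted p = 0.059). DESeq2 gave 6 members at an unadjusted p under 0.05, a level that 3.99% of all genes reached, and limma-trend 1, against 4.29%. Neither called a member at an adjusted p under 0.05. With 0 members called, the members' TAC responses were not shown to differ between F3-KO and WT hearts.

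Compared directly after TAC, F3-KO hearts had a median log2 fold change of -0.24 against WT hearts over the members (0.02 over all tested genes), with 29 of 33 below 0. No member was called by edgeR at an adjusted p under 0.05 (0 of 33; 0.078% of all genes). At an unadjusted p under 0.05 there were 2 members, both lower, *Suclg1* (-0.52, SE 0.20, unadjusted p = 0.0226) and *Sdhc* (-0.49, SE 0.20, unadjusted p = 0.0321; edgeR adjusted p = 0.473 and 0.474), where 10% of all genes reached this level in either direction and 4.16% in the lower one. *Sdhb* followed with -0.44 (SE 0.20, unadjusted p = 0.0519, edgeR adjusted p = 0.503). DESeq2 gave 6 members and limma-trend 3 at an unadjusted p under 0.05, all lower. The shares of all genes were 8.22% and 9.42%, or 3.73% and 4.16% in the lower direction. With 1 heart left out, edgeR gave 7 members when that heart was WT TAC replicate 1, and 15 when it was F3-KO TAC replicate 3. It gave 0 when the heart was F3-KO TAC replicate 2, WT TAC replicate 2 or WT TAC replicate 3. In these fits with 0 members, 5.94%, 7.39% and 7.11% of all genes reached that level. For *Suclg1* and *Cs* the F3-KO TAC hearts were below the WT TAC hearts without overlap (2 of 33; 11.4% of all genes, and 5.1% in the lower direction). Without F3-KO TAC replicate 3, 18.6% of all genes had an unadjusted p under 0.05, and without WT TAC replicate 1, 15.6% did.

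Cell type markers differed between the same TAC hearts. Of 8 fibroblast markers 8 had a log2 fold change above 0 in F3-KO TAC against WT TAC (median 1.15), with sums of 1539 to 7805 CPM against 1368 to 3391 CPM. Of 8 cardiomyocyte markers 7 were below 0 (median -0.34), with sums of 58490 to 71010 CPM against 67940 to 96530 CPM. All 6 macrophage markers were above 0 (median 0.31), with sums of 424 to 729 CPM against 358 to 559 CPM, and all 5 erythroid markers were below 0 (median -1.66), with sums of 366 to 979 CPM against 299 to 4357 CPM. Endothelial markers were mixed, with 3 of 5 above 0. *Cidea* was lower without overlap (-0.55, edgeR unadjusted p = 0.00116, adjusted p = 0.253), and its interaction was -0.53 (edgeR unadjusted p = 0.0134). In the interaction of genotype and surgery, all 8 cardiomyocyte markers (median -0.60) and all 5 erythroid markers (median -3.08, all 5 at an unadjusted p under 0.05) were below 0, and 7 of 8 fibroblast markers were above 0 (median 0.35). No marker of these lists was called at an adjusted p under 0.05 in either contrast by edgeR, and their part in the members' values was not tested.

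Without pressure overload, the knockout hearts did not lie below the wild-type hearts. In F3-KO sham against WT sham hearts the median over the members was 0.10 (-0.0041 over all tested genes), with 28 of 33 above 0. No member was called by edgeR at an adjusted p under 0.05 (0 of 33; 0.106% of all genes). *Pdhb* alone reached an unadjusted p under 0.05 (1 of 33, against 6.02% of all genes), with a log2 fold change of 0.47 (SE 0.19, unadjusted p = 0.03, edgeR adjusted p = 0.761). DESeq2 and limma-trend also gave 1 member at an unadjusted p under 0.05, against 4.74% and 5.97% of all genes. Groups without overlap were found for 3 members, all higher in F3-KO sham, *Pdhb*, *Dlst* and *Sdhd*, where 13.7% of all genes did not overlap.

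Averaged over genotypes, TAC against sham gave a median of -0.25 over the members, with 0 of 33 called by edgeR (0.078% of all genes) and 7 at an unadjusted p under 0.05, all lower (17.8% of all genes, 6.52% in the lower direction). These were *Mpc2*, *Pdp2*, *Idh3a*, *Idh3g*, *Suclg1*, *Sdha* and *Sdhc*. At an unadjusted p under 0.05 DESeq2 gave 12, against 14.1% of all genes, and limma-trend 9, against 16.9%. Without F3-KO TAC replicate 3 edgeR called 3 members, *Pdk2*, *Idh3g* and *Got1*, and 5.92% of all genes. Averaged over surgeries, F3-KO against WT gave a median of -0.07, with 0 members called (0.412% of all genes). EdgeR, DESeq2 and limma-trend gave 0 members at an unadjusted p under 0.05, against 10.1%, 8.05% and 9.78% of all genes.

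Other genes of the pathway were taken from a list of carriers, assembly factors, lactate and malic enzymes and cytosolic counterparts, of which 28 of 29 were in the table. In F3-KO TAC against F3-KO sham hearts 0 of 28 were called at an adjusted p under 0.05 (0% of all genes). At an unadjusted p under 0.05 there were 6 (21.4%), against 17.1% of all genes. In the lower direction there were 5 of 28, against 6.47% of all genes. Log2 fold changes were below 0 for 23 of 28 (82.1%), against 47.1% of all genes. The 5 lower genes were the shuttle carriers *Slc25a11* (-0.54) and *Slc25a13* (-0.50), the lactate and pyruvate transporter *Slc16a1* (-0.43), the heart-type lactate dehydrogenase *Ldhb* (-0.59) and *Mrps36* (-0.35). *Me2*, the mitochondrial NAD-dependent malic enzyme, was the 1 that was higher (0.53).

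*Pdk4*, the PDH kinase induced by fatty acids and fasting, was at 338, 117 and 134 CPM in WT sham, 130, 149.7 and 158 in F3-KO sham, 1651, 223 and 181 in WT TAC and 273, 120.1 and 197 in F3-KO TAC hearts. The level of WT TAC replicate 1 stood far above all other hearts. The log2 fold changes were 1.80 (SE 0.73, edgeR adjusted p = 0.782) for WT TAC against WT sham and -1.80 (SE 0.73, edgeR adjusted p = 0.474) for F3-KO TAC against WT TAC.

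The 1 related gene that passed the test was *Nnt*, the transhydrogenase that makes mitochondrial NADPH from NADH. It was at 1494, 1500 and 1765 CPM in WT sham and 1040, 1352 and 1861 CPM in WT TAC hearts, against 650.2, 748 and 766 CPM in F3-KO sham and 427, 396 and 823 CPM in F3-KO TAC hearts. Every F3-KO heart was below every WT heart, and averaged over surgeries *Nnt* fell by 1.25 on the log2 scale in F3-KO against WT hearts (SE 0.20, edgeR adjusted p = 0.0181). The labels give C57BL/6 for all groups without naming the substrain of the knockout or the control mice, so a difference of strain background and the loss of *Fabp3* cannot be told apart for this gene. The adjusted p was 0.0633 to 0.0675 without WT sham replicate 3 or without any 1 of the F3-KO sham hearts.

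Neighbouring mitochondrial pathways were also lower in F3-KO TAC than in F3-KO sham hearts, with medians further below 0 than the members' -0.39. For 36 subunit genes of respiratory complex I, which takes up the NADH made by the cycle, the median log2 fold change was -0.49. All 36 were below 0 and 27 (75%) had an unadjusted p under 0.05. For 18 genes of fatty acid oxidation, which supplies the cycle with acetyl-CoA, the median was -0.60. All 18 were below 0 and 13 (72.2%) had an unadjusted p under 0.05. That share was 39.4% for the members and 17.1% for all genes, or 6.47% of all genes in the lower direction. Neither list held a gene called at an adjusted p under 0.05 in edgeR. In WT TAC against WT sham hearts the medians were 0.03 for complex I and -0.09 for fatty acid oxidation. The differences between these lists and the 33 members were not tested.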

How the data were processed

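The authors deposited estimated counts per gene, not normalized, for 12 hearts in 1 joint table, and 11 single tables held the same values (the table of WT sham replicate 2 breaks off early and was not used). Of these values, 40.6% were not whole. According to the methods, reads were filtered with SOAPnuke, and the submitters' processing notes name HISAT2 2.0.4 and STAR 2.3.0; the counting tool and annotation are not given in the sources used here. A counting tool that shares reads among similar sequences could move counts between related genes.

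Counts were rounded and analysed in R 4.3.3 with edgeR 4.0.16: filterByExpr (minimum count 10; 5214 genes removed, 0.0775% of counts), TMM factors (0.931 to 1.09), a quasi-likelihood fit of 4 group means with 8 residual degrees of freedom, and 7 contrasts with Benjamini-Hochberg adjustment over 14094 genes, called at an adjusted p under 0.05. CPM values are TMM-normalised, except marker sums, which use the library total. Log2 CPM used a prior count of 2. Totals of 10424334 to 14372011 counts per library leave the spread between hearts (biological coefficient of variation 0.232) as the limit of precision; chi-square per degree of freedom between hearts of a group was 10.4 to 84.4, so no library was a copy of another. The labels give each group 3 samples numbered as replicates, taken as separate hearts. The scripts were tested on simulated data. DESeq2 1.42.0, limma 3.58.1, other normalization, other filters, a replicate block, fits of 6 libraries and leaving out each heart were alternatives.

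The members and lists were chosen with earlier results of these data known. Members are described heart by heart if among the 3 with the smallest p in the WT TAC, F3-KO TAC, TAC genotype or interaction contrast; all other members, and related genes other than *Pdk4* and *Nnt*, are named with values after these were seen.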

Additional observations from a re-analysis of the deposited data

How the results depend on the processing

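Member calls at an adjusted p under 0.05 were 0 in all 7 contrasts under DESeq2's size factors, both filters, limma-trend, the replicate block and, where run, the fit of 6 libraries. DESeq2 called 1 member in F3-KO TAC against F3-KO sham hearts, *Suclg1* (log2 fold change -0.69), and 0 in the other contrasts. An unadjusted threshold gave 13 in that contrast (17.1% of all genes) and 1 in F3-KO sham against WT sham (6.02% of all genes). It gave 2 in F3-KO TAC against WT TAC (10%), 1 in the interaction (4.48%) and 7 in TAC against sham averaged over genotypes (17.8%). Leaving out 1 heart gave 0 to 5 member calls in F3-KO TAC against F3-KO sham and 0 to 3 in averaged TAC against sham, the highest without F3-KO TAC replicate 3; in the other contrasts it gave 0. The count of members at an unadjusted p under 0.05 in F3-KO TAC against F3-KO sham was an alternative added after the data were seen. It ranged from 2 to 25 when 1 heart was left out, against 9.44% to 24.6% of all genes. The cause of these shifts was not tested. Of the 12 log2 fold changes followed for single members, 1 reversed: *Pdp1* in WT TAC against WT sham, which ranged from -0.39 to 0.0043 when 1 heart was left out, the last without WT sham replicate 1.

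With the replicate number as a block, 16 members instead of 13 had an unadjusted p under 0.05 in F3-KO TAC against F3-KO sham. The share of all genes was 17.1% in both fits, and member calls stayed at 0. Same-numbered hearts correlated at -0.14 to 0.36 over 18 pairs, with 4 pairs over 0.1. The highest value was that of WT TAC replicate 3 with F3-KO TAC replicate 3. Hearts of different numbers correlated at -0.36 to 0.20. Only 1 of the 12 libraries had a heart of its own number as its best match in every other group. The labels give only a replicate number, and these correlations cannot decide whether same-numbered hearts were handled together.

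Over all genes, calls depended on the tool: DESeq2 against edgeR gave 446 against 0 in F3-KO TAC against F3-KO sham, 26 against 0 in WT TAC against WT sham, 102 against 15 in F3-KO sham against WT sham, 96 against 11 in F3-KO TAC against WT TAC, 6 against 0 in the interaction, 619 against 11 in averaged TAC against sham and 217 against 58 in averaged F3-KO against WT.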
